A study of Mus musculus with 9 samples.

Results

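The matrix metalloproteinases (Mmp), their tissue inhibitors (Timp) and the related membrane-bound (Adam) and secreted (Adamts) proteases were described in sorted cancer cells of lung tumours, from mice with and without floxed alleles of Smarca4, which encodes the ATPase BRG1 of the BAF chromatin remodelling complex. The members were all genes of the count table whose symbol was Mmp, Timp, Adam or Adamts followed by a number, which gave 78 of 23224 genes: 23 Mmp, 4 Timp, 32 Adam and 19 Adamts. Bulk RNA sequencing gave 9 libraries in 3 groups. KP mice were Trp53fl/fl and Smarca4+/+ (4 libraries), KPS-HET mice Trp53fl/fl and Smarca4fl/+ (2 libraries), and KPS mice Trp53fl/fl and Smarca4fl/fl (3 libraries). Mice of every group carried the Cre-activated reporter Rosa26LSL-TdTom on a mixed B6;129S2 background and received adenoviral Cre by the trachea. The CCSP promoter that drives this Cre works mainly in airway club cells, so recombination started in cells that use it. When mice were moribund, tumour-bearing lungs were digested and the cancer cells taken by FACS, and the sources used here do not state the gate or the ages. Whether each library is a different mouse is not stated in the labels, so the p-values reflect only the spread among these libraries.

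Metalloproteinases cut proteins outside the cell with a zinc ion in the active site. The Mmp enzymes are made as inactive precursors and together cut collagens, elastin, laminins and many soluble proteins, and Timp proteins bind the active site and block it. Adam enzymes sit in the cell membrane and release, or shed, the outer parts of other membrane proteins, such as growth factors of the EGF family, and Adamts enzymes cut proteoglycans and other matrix proteins. In the lung Mmp12 is best known as the elastase of macrophages, and Mmp3, Mmp10 and Mmp13 as enzymes that injured epithelium, stroma and tumour cells make when AP-1 and ETS factors are active.

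Mmp12 lies with Mmp13, Mmp3 and Mmp10 in a cluster of 10 Mmp genes on chromosome 9, in the order Mmp13, Mmp12, Mmp1b, Mmp3, Mmp1a, Mmp10, Mmp8, Mmp27, Mmp20 and Mmp7. The promoters of these 4 genes are shown because the genes share this cluster while KPS libraries stood above KP for Mmp12 and below KP for the other 3. RefSeq sequences of the build GRCm38.p6, plus strand, are given for the 120 bases before each start site. They come from chr9:7272394-7272513 for Mmp13, chr9:7344277-7344396 and chr9:7347254-7347373 for the first and the second start site of Mmp12, chr9:7445702-7445821 for Mmp3 and chr9:7502222-7502341 for Mmp10. Capitals mark a match to the AP-1 motif TGANTCA, searched on both strands, where N is any base.
Mmp13: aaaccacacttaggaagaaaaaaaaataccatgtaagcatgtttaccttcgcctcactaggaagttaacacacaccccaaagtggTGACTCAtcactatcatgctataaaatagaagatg
Mmp12, first start site: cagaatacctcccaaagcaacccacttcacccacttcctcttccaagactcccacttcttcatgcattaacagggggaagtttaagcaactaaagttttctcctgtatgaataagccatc
Mmp12, second start site: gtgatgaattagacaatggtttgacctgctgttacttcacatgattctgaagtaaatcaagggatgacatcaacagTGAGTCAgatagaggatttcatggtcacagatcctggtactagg
Mmp3: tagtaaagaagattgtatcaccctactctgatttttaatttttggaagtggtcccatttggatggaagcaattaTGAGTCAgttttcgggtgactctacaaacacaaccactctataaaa
Mmp10: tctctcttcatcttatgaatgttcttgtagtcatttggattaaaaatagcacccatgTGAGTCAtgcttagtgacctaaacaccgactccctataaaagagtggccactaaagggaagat

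In positions counted back from the start site, the AP-1 letters lay from -35 to -29 in Mmp13, from -46 to -40 in Mmp3 and from -63 to -57 in Mmp10. Mmp12 held them only before its second start site, from -44 to -38. Over a window from 250 bases before to 50 after the start, 8 of the 10 cluster genes held the motif, against 4 of the other 38 members that had a promoter sequence. Mmp8 and Mmp27 were the cluster genes without it. These are counts of genes, where a match before any start site counts. By promoter, the motif was held by 12 of 53 for the members (22.6%) and by 7.81% of all 32851 of the same source. The ETS-type motif AGGAAG stood in 41.5% of the 53 member promoters and in 35.4% of all promoters, and the RUNX motif ACCACA in 22.6% and 16.8%. Adam15, Mmp23, Adam10, Timp1 and Timp2 had no AP-1 match, and Adam12 and Adam28 had no promoter sequence. A match of letters does not show that a factor binds there.

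Library totals ran from 12607471 to 37114352 estimated counts, and levels below are CPM, counts scaled to a common library size with the TMM method. Smarca4 itself stood between 110 and 137 CPM in KP, at 76.4 and 97.2 CPM in KPS-HET and between 39.9 and 55.5 CPM in KPS (-1.40 ± 0.15 on the log2 scale for KPS against KP, SE, adjusted p = 0.0021). Lung epithelium markers, Epcam, Cdh1 and surfactant genes among them, summed to 70028 to 103042 CPM in KP, 54070 and 78066 in KPS-HET and 25770 to 56959 in KPS, with Sftpc the largest part of the sum. Of the 11, Cdh1 was called higher in KPS and Nkx2-1 (-0.68 ± 0.16, adjusted p = 0.0309) and Sftpb (-0.70 ± 0.17, adjusted p = 0.037) lower, and Epcam stood at 622 CPM or more in every library (-0.01 ± 0.16, adjusted p = 0.983). Markers of macrophages were present as well. Of 18 macrophage and monocyte markers in the table none was at 0 in all libraries, 16 had a positive fold change in KPS against KP and 3 (Marco, Chi3l3 and Ctss) were called higher. Lyz1 and Lyz2, which alveolar type 2 cells also express, are in that list and fixed its sum, at 4370 to 10730 CPM in KP, 3728 and 9915 in KPS-HET and 4598 to 11182 in KPS. Without them the other 16 markers summed to 139 to 265 CPM in KP, to 1410 and 122 in KPS-HET replicates 1 and 2, and to 5245, 488 and 1377 in KPS replicates 1, 2 and 3. Fibroblast markers summed to 7.05 to 10.97 CPM in KP, 2.49 and 14.5 in KPS-HET and 8.64 to 87.99 in KPS. Of these 11 markers, 10 had a positive fold change in KPS against KP (median 3.08 on the log2 scale) and 1 was called. Of 10 endothelial markers 9 were positive (median 1.77) and 1 was called. Over all 15663 genes tested 7976 were positive and 7.24% were called. The part of fibroblast and endothelial RNA in the member levels was not tested. Neutrophil markers summed to 138 to 452 CPM in KP, 455 and 3040 in KPS-HET and 1560 to 11507 in KPS, with 1 of 7 tested called (Ltf, which secretory epithelium also makes and which gave most of that sum).

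Of the 78 members 53 passed the filter on low counts and were tested: 18 Mmp, 4 Timp, 17 Adam and 14 Adamts. Of the other 25, 11 had no count in any library, all of them Adam genes, and the other 14 never rose above 0.843 CPM. Per kilobase of exon, which allows levels to be compared between genes, Timp2 was highest in KP (89.2 CPM per kb), followed by Adam9 (64.0), Timp3 (52.2), Adam10 (33.7), Mmp14 (27.1), Mmp13 (21.9) and Adam17 (19.4). In KPS the order was Timp2 (142), Timp3 (96.9), Adam9 (73.8), Adam10 (66.5), Adam17 (33.8), Adam28 (31.2), Timp1 (26.4) and Mmp14 (19.1). Mmp13 stood at 2.88 CPM per kb there. Neighbours in this order often lie within each other's spread between libraries: Timp3 in KPS ranged from 236 to 739 CPM over its 3 libraries, and Adam9 from 271 to 317.

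Summed over a family and per kilobase, Mmp transcripts came to 79.3 to 115 CPM per kb in the KP libraries, 68.4 and 102 in KPS-HET and 46.4 to 53.8 in KPS. The summed Timp level was 128 to 194 CPM per kb in KP, 127 and 145 in KPS-HET and 214 to 328 in KPS. Adam transcripts summed to 142 to 165 CPM per kb in KP, 148 and 179 in KPS-HET and 226 to 245 in KPS, and Adamts transcripts to 14.7 to 29.6, 16.6 and 28.1, and 14.3 to 35.1. The KP and KPS libraries did not overlap in the first 3 sums and overlapped in that of Adamts. These sums are descriptions and were not tested.

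**Figure D1:**
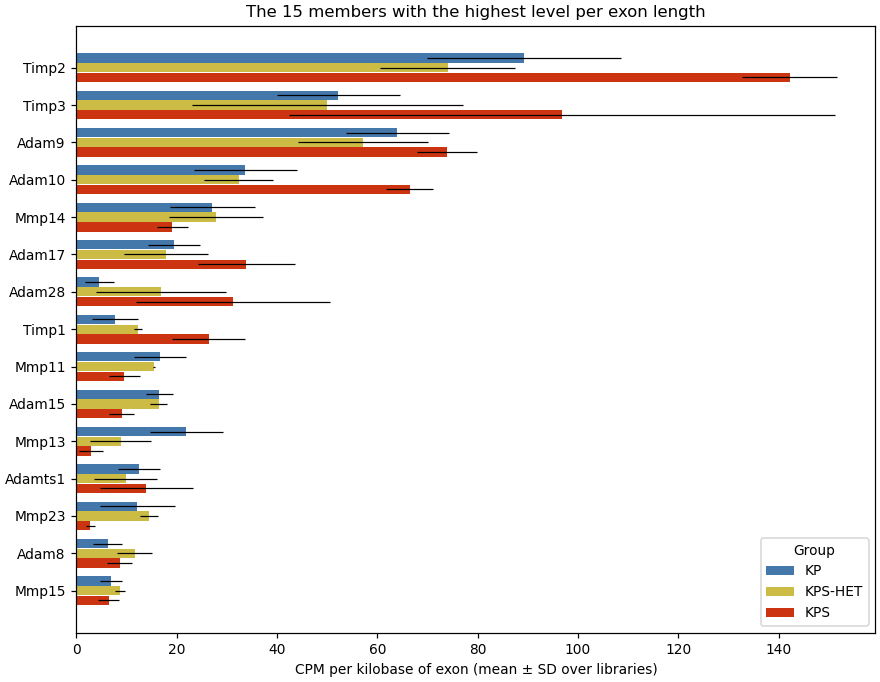
Mean CPM per kilobase of exon of the 15 members with the highest level over all 9 libraries, by group, with bars for the SD over libraries (KP n = 4, KPS-HET n = 2, KPS n = 3). Timp2, Timp3, Adam9 and Adam10 lead in every group, and Mmp13 stands at 21.9 in KP and at 2.88 in KPS.

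Between KPS and KP, 9 of the 53 tested members (17.0%) were called at an adjusted p below 0.05, 6 higher and 3 lower, where 7.24% of all 15663 genes tested were called (3.96% higher and 3.28% lower). Higher in KPS were Mmp12, Timp1, Timp2, Adam10, Adam12 and Adam28. Lower were Mmp3, Mmp23 and Adam15. By family this was 3 of 18 Mmp, 2 of 4 Timp, 4 of 17 Adam and 0 of 14 Adamts. The unadjusted p, two-sided, was below 0.05 for 18 members (34.0%), 7, 3, 6 and 2 by family, where 24.3% of all genes tested were below it. DESeq2 called the same 9 members and 6 more: Mmp10, Mmp13, Mmp17, Adam17, Adamts10 and Adamts15. It also called more genes over all 15663, 2280 against 1134 with edgeR. The median log2 fold change was 0.21 over all tested members, -0.41 over Mmp, 1.33 over Timp, 0.21 over Adam and 0.42 over Adamts, against 0.01 over all genes tested. For the 2 members that had no count in KPS (Mmp1a and Adam30) the fold change is only a bound. Both lie below these medians with or without the bound, so its use cannot move them. KP and KPS libraries did not overlap for 13 tested members (24.5%), 7 higher and 6 lower in KPS, where 21.8% of all genes tested did not overlap (11.7% higher and 10.1% lower). Since the cells were profiled in bulk, fewer cells of a type and less RNA per cell cannot be told apart in any of these values.

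**Figure D2:**
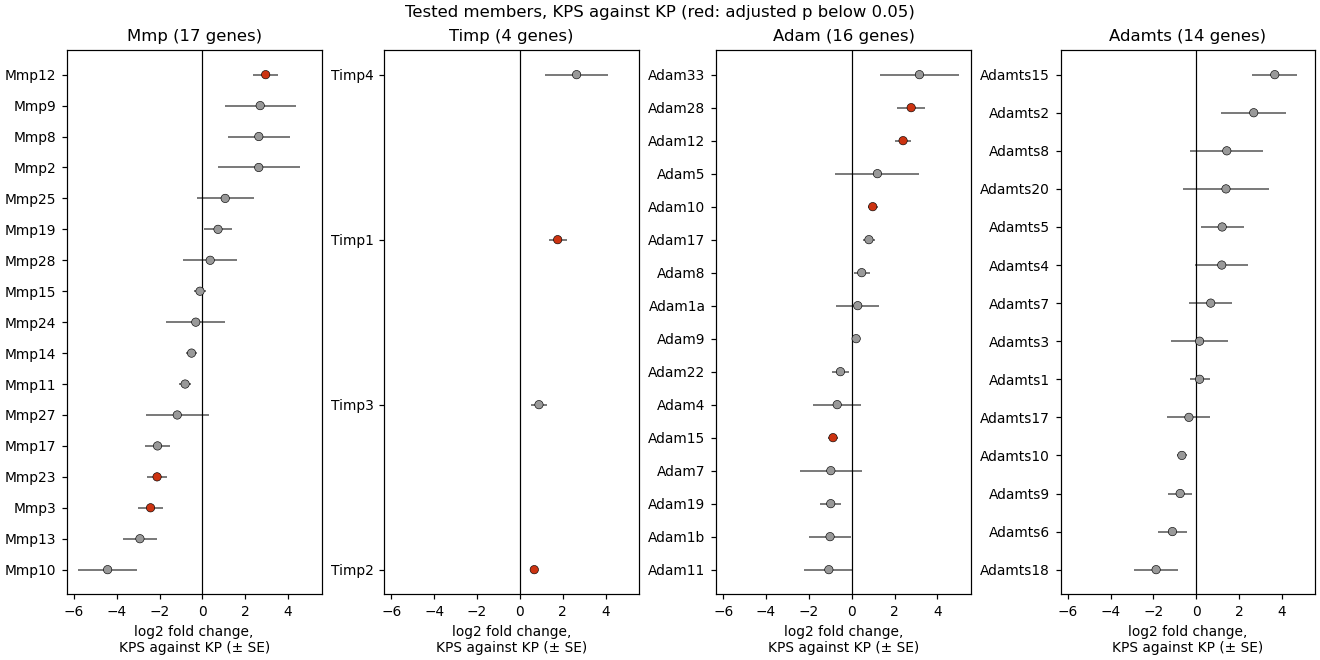
Log2 fold change of KPS against KP for the tested members of each family, with the SE as bars, ordered by size and with called members in red. Mmp1a and Adam30, which had no count in KPS, are left out. Mmp10, Mmp13, Mmp3, Mmp23 and Mmp17 stand at the low end of the Mmp panel and Mmp12 at its top.

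Mmp12 was the only Mmp gene called higher in KPS. Its level was 1.39, 0.783, 3.33 and 1.82 CPM in the 4 KP libraries, 12.1 and 4.15 CPM in the KPS-HET libraries and 23.4, 8.50 and 10.7 CPM in the KPS libraries. Every KPS and every KPS-HET library lay above every KP library. With 2 KPS-HET libraries such a gap to KP can arise by chance, and its share over all genes was not counted. Against KP, KPS was higher by 2.95 ± 0.58 on the log2 scale (SE, adjusted p = 0.0185), and KPS-HET by 2.15 ± 0.62, with an unadjusted p of 0.0061 that did not pass adjustment over all genes (adjusted p = 0.974). KPS differed from KPS-HET by 0.80 ± 0.68 (adjusted p = 0.602). KPS replicate 1 and KPS-HET replicate 1 were the highest libraries of their groups for Mmp12 and for the macrophage markers, while in KP replicate 3 was highest for Mmp12 and replicate 4 for the markers. With a term for the macrophage marker level in the fit (the macrophage term below) the difference between KPS and KP was 1.71 (adjusted p = 0.209). It was 2.35 without KPS replicate 1 (adjusted p = 0.0568) and 2.36 when KPS replicate 1 and KPS-HET replicate 1, the 2 libraries with the highest macrophage marker level, were both left out (adjusted p = 0.0585). Without KP replicate 1 or KP replicate 4 the adjusted p was 0.0588 and 0.0503. In KPS replicate 2, where the 16 macrophage markers summed to 488 CPM, Mmp12 stood at 8.50 CPM. That marker sum was the lowest of the KPS libraries but above every KP library (139 to 265 CPM). In KPS-HET replicate 2 the marker sum was the lowest of all libraries (122 CPM) and Mmp12 stood at 4.15 CPM. The part of macrophage RNA in the Mmp12 level was not tested beyond these fits. The macrophage term was the mean log2 CPM of all 18 markers, Lyz1 and Lyz2 included. It ran from 2.18 to 2.96 in KP and from 3.26 to 6.28 in KPS, without overlap. Term and group thus moved together. For any gene, a call lost with this term cannot be assigned to macrophage RNA, to genotype or to a less precise fit. Some folds shrank as the call was lost, as for Mmp12. Others did not, as for Timp1 (1.76 to 1.92) and Adam15 (-0.87 to -1.17). Over all genes tested, calls went from 1134 to 334. Of the Mmp12 exons 3.94% overlap Mmp1b on the opposite strand, and Mmp1b stayed at or below 0.595 CPM.

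**Figure D3:**
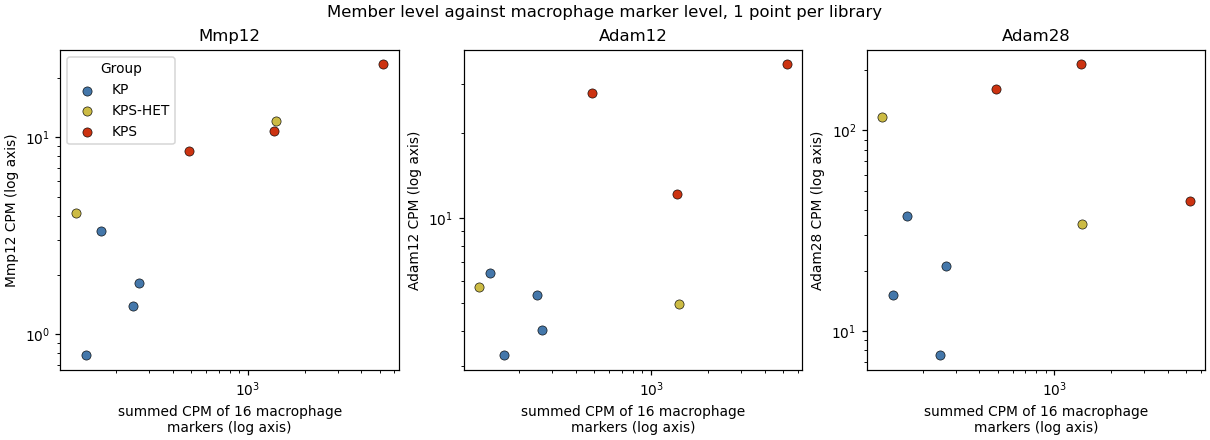
Level of Mmp12, Adam12 and Adam28 against the summed level of 16 macrophage markers, both in CPM on log axes, with 1 point for each of the 9 libraries and colours for the groups. KPS replicate 1, at 5245 CPM of macrophage markers, has the highest Mmp12 and Adam12 but the lowest Adam28 of the 3 KPS libraries.

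Of the other cluster genes, Mmp3 fell in KPS and Mmp13 and Mmp10 stood below KP in every KPS library without passing the test. Mmp3, stromelysin 1, which cuts laminin, fibronectin and proteoglycans and activates other Mmp precursors, stood at 4.73, 8.55, 7.58 and 8.71 CPM in KP, 1.2 and 6.26 in KPS-HET and 1.46, 1.36 and 1.32 in KPS. All 3 KPS libraries lay below all KP libraries and within a narrow range, and the KPS-HET libraries fell on either side of the gap. Mmp3 fell by 2.42 ± 0.58 on the log2 scale between KP and KPS (SE, adjusted p = 0.0349). The fold kept its size with any 1 library left out (-2.60 to -2.35), but the adjusted p lay between 0.0564 and 0.101 when any KP or KPS library was missing, and the call was lost with the macrophage term (-1.68, adjusted p = 0.364). With the 2 libraries of highest macrophage marker level left out, the difference was -2.49 (adjusted p = 0.0285).

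Mmp13, collagenase 3, had the highest level per kilobase of the cluster genes in KP. Its level was 41.7, 53.8, 51.9 and 86.8 CPM in KP, 12.1 and 35.0 in KPS-HET and 13.4, 0.680 and 9.04 in KPS. Every KPS and KPS-HET library lay below every KP library, and for KPS-HET the limit given for Mmp12 applies. The difference between KPS and KP was -2.91 ± 0.78 (adjusted p = 0.0546), and that between KPS-HET and KP -1.32 ± 0.84 (adjusted p = 0.974). The first was -2.40 and called without KPS replicate 2 (adjusted p = 0.0309), and -3.61 and not called without KPS replicate 1 (adjusted p = 0.0549). It was also called with limma-voom (-3.43, adjusted p = 0.0331), DESeq2 (-2.92, adjusted p = 0.00827) and robust estimation off (adjusted p = 0.0474).

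Mmp10, stromelysin 2, was detected in every KP library and in 1 of 3 KPS libraries. It stood at 4.10, 6.75, 9.59 and 7.45 CPM in KP, 0.984 and 13.9 in KPS-HET, and 0.881, 0 and 0 in KPS. Only KPS replicate 1 had counts, and the KPS-HET libraries were the lowest and the highest of the 6 libraries outside KPS. The difference of KPS from KP was -4.42 ± 1.37 (adjusted p = 0.0826). Without KPS replicate 1 all remaining KPS libraries were at 0 and the gene was called (adjusted p = 0.0199). Mmp1a, an interstitial collagenase of the mouse, had 23 and 20 counts in KP replicate 4 and KPS-HET replicate 1 and none elsewhere. With KPS set to a floor of 3 counts for the group as a whole, its level was at least 5.34-fold below the KP mean. That mean rests on KP replicate 4 alone, and the KP and KPS libraries of Mmp1a overlapped (adjusted p = 0.296). Mmp7, Mmp20 and Mmp1b did not pass the filter. Mmp8, the neutrophil collagenase, and Mmp27 were at or below 0.918 CPM in every library other than KPS replicate 1, where Mmp8 reached 4.74 CPM.

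**Figure D4:**
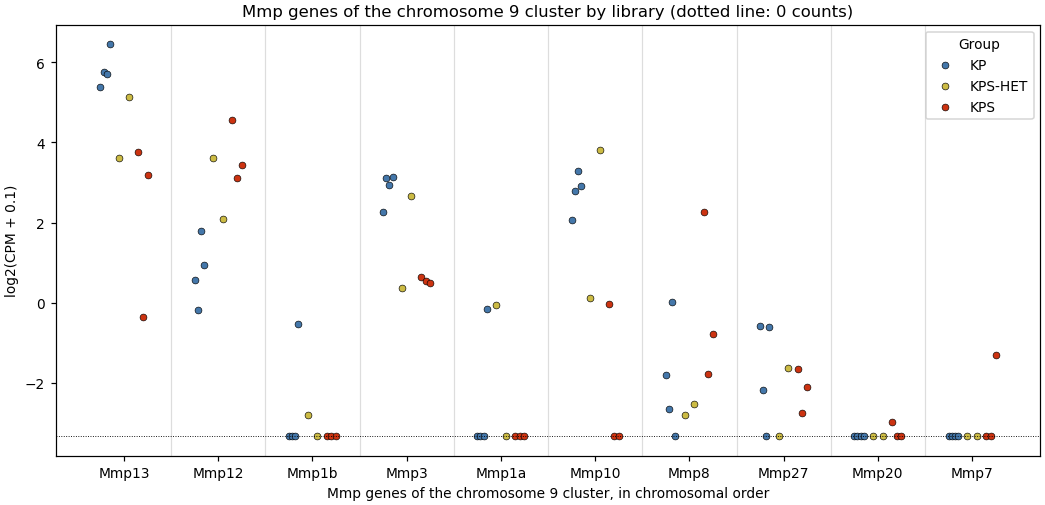
Level of the 10 Mmp genes of the chromosome 9 cluster, in chromosomal order, as log2(CPM + 0.1) with 1 point per library and the dotted line at 0 counts. KPS points lie above KP points for Mmp12 and below them for Mmp13, Mmp3 and Mmp10.

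Outside the cluster, Mmp23, a membrane-tethered enzyme that differs in its prodomain from most of the family, stood at 9.45, 9.09, 31.8 and 19.2 CPM in KP, 18.9 and 22.5 in KPS-HET and 3.08, 5.58 and 3.42 in KPS. The KPS libraries were the lowest 3 of the 9. Mmp23 fell by 2.11 ± 0.47 on the log2 scale against KP (SE, adjusted p = 0.0286), and the difference from KPS-HET was -2.36 ± 0.53 (adjusted p = 0.0653). The first was not called without KP replicate 4 (adjusted p = 0.0579), KPS replicate 1 (0.0768) or KPS replicate 3 (0.0916), nor with the macrophage term (-1.74, adjusted p = 0.214).

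Mmp17, a membrane-type Mmp anchored by a lipid, averaged 2.76 ± 0.58 CPM in KP (SD, n = 4), 1.78 ± 0.89 in KPS-HET (SD, n = 2) and 0.645 ± 0.204 in KPS (SD, n = 3). Its difference of -2.09 ± 0.59 was not called (adjusted p = 0.0614), although KPS lay below every other library and limma-voom (adjusted p = 0.0487) and DESeq2 (adjusted p = 0.00288) called it. Mmp14, the main membrane-type collagenase and activator of Mmp2, was the most abundant Mmp and overlapped between the groups, at 69.9 to 155 CPM in KP, 89.1 and 144 in KPS-HET and 65.1 to 89.1 in KPS (-0.50 ± 0.26, adjusted p = 0.278). Mmp11, stromelysin 3, gave -0.80 ± 0.29 (adjusted p = 0.128) and Mmp15 -0.11 ± 0.29 (adjusted p = 0.867). The gelatinases Mmp2 and Mmp9, both known mainly from stroma and leukocytes, stayed at or below 3.11 and 2.24 CPM.

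Among the inhibitors, Timp1, a secreted glycoprotein that also acts as a cytokine, stood at 2.96, 5.00, 7.00 and 12.5 CPM in KP, 10.4 and 11.4 in KPS-HET and 16.1, 26.6 and 27.8 in KPS. KPS lay above all other libraries. Timp1 rose by 1.76 ± 0.43 on the log2 scale against KP (SE, adjusted p = 0.0361). Timp2, which blocks Mmp2 and at the cell surface also takes part in its activation, was far more abundant, at 289, 324, 276 and 434 CPM in KP, 239 and 310 in KPS-HET and 567, 498 and 517 in KPS. The KPS libraries again lay above the rest, and the change was smaller (0.67 ± 0.17, adjusted p = 0.0419 against KP). Against KPS-HET, Timp2 gave 0.94 ± 0.21 (adjusted p = 0.0651) and Timp1 1.11 ± 0.53 (adjusted p = 0.33). Both calls were near the threshold. With 1 library left out Timp1 was called without KP replicate 4 or KPS replicate 1 only (adjusted p up to 0.11 without the others), and Timp2 without KP replicate 4 only (up to 0.12). With the macrophage term they gave 1.92 (adjusted p = 0.128) and 0.65 (adjusted p = 0.233).

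Timp3, which binds to the matrix and inhibits Adam17 and Adamts enzymes as well as Mmp enzymes, had the second highest level per kilobase over all 9 libraries and was 294, 181, 215 and 296 CPM in KP, 326 and 146 in KPS-HET and 739, 236 and 397 in KPS. The groups overlapped (0.89 ± 0.39, adjusted p = 0.195), and the value turned to -0.35 with the macrophage term (adjusted p = 0.446) and fell to 0.33 without KPS replicate 1 (adjusted p = 0.65). Timp4 was barely detected, at 0.315 CPM in KP replicate 1, 0 in the other KP libraries and 0.395 to 0.633 CPM in KPS (2.65 ± 1.47, adjusted p = 0.308).

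**Figure D5:**
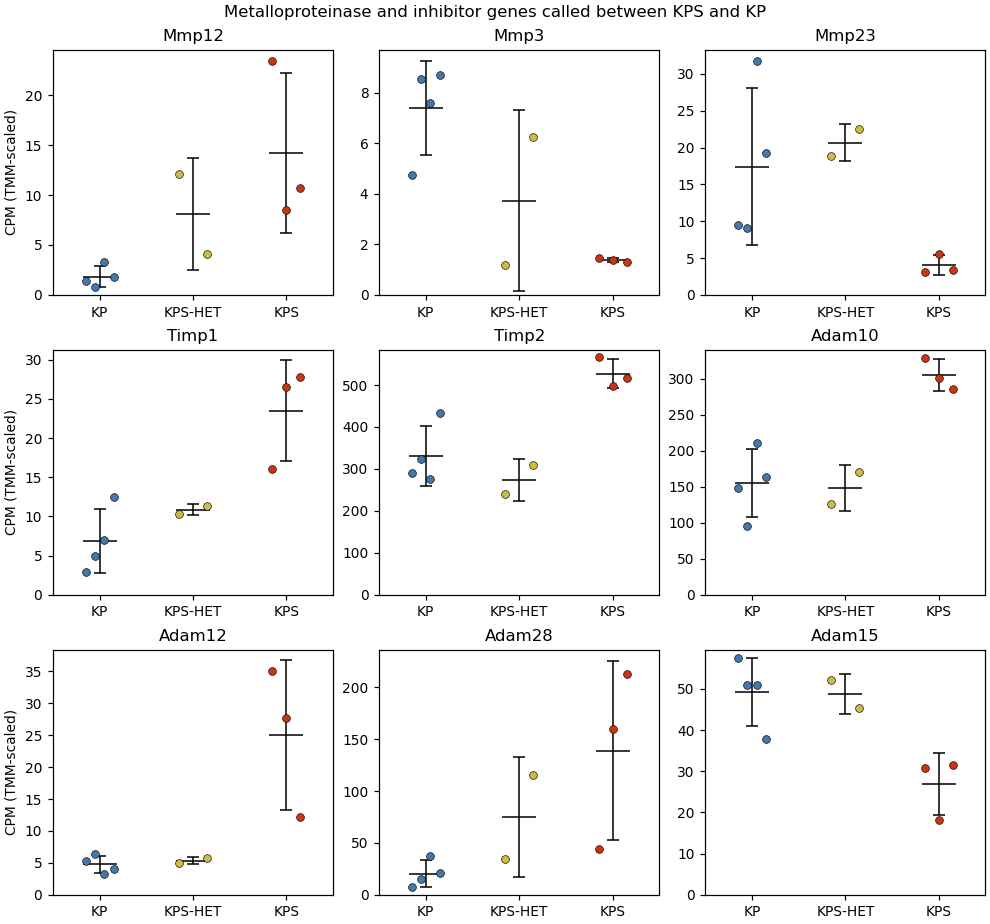
Level in CPM, on linear axes that start at 0, of the 9 members called between KPS and KP, with 1 point per library and bars for the group mean and SD. For Adam12, Timp1, Timp2, Adam10, Mmp12 and Adam28 every KPS point lies above every KP point, and for Mmp3, Mmp23 and Adam15 every KPS point lies below.

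Adam12, a protease of muscle, bone and tumour cells that cuts insulin-like growth factor binding proteins, had the smallest p among the members. Its level was 5.36, 6.38, 3.27 and 4.02 CPM in KP, 4.96 and 5.73 in KPS-HET and 35.1, 27.7 and 12.2 in KPS. The KP and KPS-HET libraries lay in a common range and every KPS library above it. Adam12 rose by 2.40 ± 0.38 on the log2 scale against KP (SE, adjusted p = 0.0075), with 2.23 ± 0.48 against KPS-HET (adjusted p = 0.0617). It was called with each library left out in turn (adjusted p at most 0.0267), and missed the threshold with the macrophage term (2.25, adjusted p = 0.0635).

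Adam28, which is made by lymphocytes and by lung and other epithelia, also rose. It stood at 7.56, 15.1, 37.6 and 21.0 CPM in KP, 34 and 116 in KPS-HET and 44.2, 160 and 213 in KPS. The KPS range began just above the top of KP, and the second KPS-HET library lay inside it. Adam28 rose by 2.77 ± 0.66 against KP (SE, adjusted p = 0.037), and KPS-HET gave 1.88 ± 0.70 against KP (unadjusted p = 0.0247, adjusted p = 0.974). The difference between KPS and KP was larger with the macrophage term (4.06, adjusted p = 0.0244). It was not called without KP replicate 1, KP replicate 2 or KP replicate 4 (adjusted p from 0.0812 to 0.0975), without KPS replicate 2 (0.0796) or KPS replicate 3 (0.102), or with limma-voom (0.0604).

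The sheddases Adam10 and Adam17, which release Notch, cadherin and EGF-family fragments and tumour necrosis factor, were among the most abundant members. Adam10 stood at 148, 96.2, 211 and 164 CPM in KP, 126 and 171 in KPS-HET and 329, 301 and 286 in KPS. The 3 KPS libraries were the highest and close together. Adam10 rose by 0.98 ± 0.23 against KP (SE, adjusted p = 0.0315) and gave 1.04 ± 0.28 against KPS-HET (adjusted p = 0.112). It was not called without KP replicate 1 (adjusted p = 0.0878), KP replicate 4 (0.0689) or any single KPS library (0.0746 to 0.0885), with the fold between 0.89 and 1.0 in these fits, nor with the macrophage term (1.04, adjusted p = 0.153). Adam17 averaged 87.5 ± 23.5 CPM in KP (SD, n = 4), 80.2 ± 37.8 in KPS-HET (SD, n = 2) and 153 ± 43.7 in KPS (SD, n = 3), a difference of 0.80 ± 0.29 that was not called (adjusted p = 0.125). Of its exons 6.9% overlap Iah1 on the opposite strand. Adam9, another widely expressed sheddase, stayed between 194 and 317 CPM in all libraries (0.21 ± 0.16, adjusted p = 0.479).

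Adam15, which carries an integrin-binding motif, stood at 57.4, 51, 50.9 and 37.7 CPM in KP, 52.2 and 45.3 in KPS-HET and 30.9, 18.2 and 31.5 in KPS. KP and KPS-HET overlapped and KPS lay below both. Adam15 fell by 0.87 ± 0.22 against KP (SE, adjusted p = 0.0422). With 1 library left out it was called without KP replicate 4 only (adjusted p up to 0.104 otherwise), and it was not called with the macrophage term (-1.17, adjusted p = 0.0971). An antisense gene covers 24.7% of its exons, so reads of either cannot be told apart if the counts do not use strand. Adam8, a leukocyte and tumour sheddase, ranged from 10.5 to 43.9 CPM with overlapping groups (0.46 ± 0.37, adjusted p = 0.486).

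No Adamts gene was called in the main edgeR fit, and DESeq2 called Adamts10 and Adamts15. Adamts1, which cuts versican and aggrecan, was the most abundant, at 37.4 to 87.7 CPM in KP, 26.5 and 69.9 in KPS-HET and 39.1 to 120 in KPS (0.16 ± 0.47, adjusted p = 0.884). Adamts15, also a proteoglycan-cutting enzyme, came nearest to a call. It stood at 1.2, 0.482, 0.344 and 0.175 CPM in KP, 0.257 and 2.41 in KPS-HET and 0.743, 8.59 and 11.4 in KPS. The high values were in KPS replicates 2 and 3 and KPS-HET replicate 2, the same 3 libraries that were highest for Adam28. The difference was 3.67 ± 1.05 (adjusted p = 0.0644). It was called with DESeq2 (3.67, adjusted p = 0.00358), with the macrophage term (5.91, adjusted p = 0.0278) and without KPS replicate 1 (4.17, adjusted p = 0.0327), and was not with limma-voom (2.95, adjusted p = 0.286) or without KPS replicate 3 (3.05, adjusted p = 0.184). Adamts10, which acts in fibrillin microfibrils, averaged 37.6 ± 8.93 CPM in KP (SD, n = 4), 39.8 ± 1.53 in KPS-HET (SD, n = 2) and 23.6 ± 4.37 in KPS (SD, n = 3), with a difference of -0.67 ± 0.22 (adjusted p = 0.0944). Adamts18 gave -1.87 ± 1.03 (adjusted p = 0.304) and Adamts9 -0.75 ± 0.57 (adjusted p = 0.47).

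The other comparisons shared libraries with the first and called no member in the main edgeR fit. Between KPS and KPS-HET 0 of 53 members passed, where 0.932% of all genes were called. At an unadjusted p below 0.05 stood 10 members (18.9%, against 16.5% of all genes). DESeq2 called 5 members there (Adam10, Adam12, Mmp10, Mmp23 and Timp2) and 991 of all 15663 genes tested, where edgeR called 146. Between KPS-HET and KP 0 of 53 passed and 0% of all genes. At an unadjusted p below 0.05 stood 2 members, Mmp12 and Adam28, both higher in KPS-HET (3.77% of the members, against 4.0% of all genes), and DESeq2 called none. With 2 KPS-HET libraries these comparisons were the least precise, and a missed threshold does not show that the groups were alike.

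Among genes that act with these proteases, 7 lists were read in the KPS and KP libraries, with 10 to 19 tested genes in each. From 10% to 26.3% of a list was called, where 7.24% of all genes tested were. An unadjusted p below 0.05 was held by 23.1% to 57.9% of a list and by 24.3% of all genes tested. With so few genes per list, and lists chosen with earlier results known, these shares are descriptions. Whether any list exceeded the share over all genes was not tested. Of 10 tested membrane and secreted regulators 1 was called, Sparc, a collagen-binding matrix protein that fell by 0.83 ± 0.16 on the log2 scale from 647 ± 34 CPM in KP (SD, n = 4) to 364 ± 83.2 in KPS (SD, n = 3, adjusted p = 0.0182). Of 12 proteases and receptors that activate precursors 2 were called. Hpn, the membrane serine protease hepsin, stood at 91.0, 107, 105 and 92.5 CPM in KP, 83.6 and 86.9 in KPS-HET and 22.2, 18.7 and 25.3 in KPS. It had no library of KPS near the other groups and fell by 2.16 ± 0.14 (adjusted p = 0.000449), the smallest p of all genes tested. Hpn was also called between KPS and KPS-HET (-1.95 ± 0.16, adjusted p = 0.00314). Plaur, the urokinase receptor, rose by 1.2 ± 0.24 (adjusted p = 0.0196), from 153 ± 51.5 CPM to 350 ± 63.4. Hpn kept its calls in both comparisons under every alternative tried, Sparc was not called without KPS replicate 2 or KPS replicate 3, and Plaur was not called without KP replicate 1 or KPS replicate 3 or with the macrophage term.

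The tetraspanins that carry Adam10 to the cell surface and help set what it cuts moved in both directions, with 2 of 10 tested partners of Adam10 and Adam17 called. Tspan15, the partner linked to shedding of N-cadherin in other cells, stood at 112, 101, 124 and 136 CPM in KP, 102 and 165 in KPS-HET and 267, 234 and 256 in KPS, and rose by 1.09 ± 0.17 (SE, adjusted p = 0.0069). Tspan5, a partner linked to Notch cleavage, stood at 62.3, 34.5, 70.8 and 70.9 CPM in KP, 41.1 and 62.3 in KPS-HET and 27.6, 22.5 and 25 in KPS, and fell by 1.25 ± 0.26 (SE, adjusted p = 0.0222). For neither gene did KPS overlap KP or KPS-HET. Tspan15 was called under every alternative tried, and Tspan5 was not called without KP replicate 1, KP replicate 4, KPS replicate 2 or KPS replicate 3, or with the macrophage term.

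Of 19 proteins known to be shed by Adam enzymes 5 were called. The membrane-bound chemokine Cx3cl1 rose by 1.12 ± 0.12 (SE, adjusted p = 0.00214), from 58.7 to 65.8 CPM in KP to 118 to 154 CPM in KPS, and E-cadherin (Cdh1) rose by 1.02 ± 0.17 (adjusted p = 0.00854), from 757 ± 127 CPM to 1535 ± 219. Both were also called against KPS-HET (0.94 ± 0.15, adjusted p = 0.0301, and 1.07 ± 0.21, adjusted p = 0.0483). The other 3 fell: the EGF-receptor ligands betacellulin (Btc, -0.89 ± 0.20, adjusted p = 0.0269) and amphiregulin (Areg, -0.77 ± 0.20, adjusted p = 0.0455), and the receptor Notch1 (-1.23 ± 0.30, adjusted p = 0.0365). The median of the list was 0.24. Against KP, Cx3cl1 was called under every alternative tried and Cdh1 under all but the macrophage term (adjusted p = 0.0734), while against KPS-HET Cdh1 lost its call without any single library but KP replicate 2, and Cx3cl1 without KP replicate 1, KP replicate 4, either KPS-HET library, KPS replicate 2 or KPS replicate 3. Btc was not called without KP replicate 1, KP replicate 2, KPS replicate 2 or KPS replicate 3, Areg without any single KP library, KPS replicate 2 or KPS replicate 3, and Notch1 when any 1 library except KP replicate 4 or KPS replicate 2 was left out. With the macrophage term Btc (adjusted p = 0.111), Areg (0.322) and Notch1 (0.23) were not called either.

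Of 16 matrix substrates 3 were called, all higher in KPS: Lama3, a laminin chain of epithelial basement membrane (1.07 ± 0.26, adjusted p = 0.0383), Vwf, the substrate of Adamts13 made by endothelium (2.28 ± 0.49, adjusted p = 0.0242), and the collagen chain Col1a1 (2.64 ± 0.69, adjusted p = 0.0477). Vwf and Col1a1 are also in the endothelial and fibroblast marker lists, and both were highest in KPS replicate 3 (41.5 and 15.4 CPM), the library with the highest fibroblast (87.99 CPM) and endothelial (174 CPM) sums. Their part in the result was not tested. Without KPS replicate 3 Vwf gave 1.49 (adjusted p = 0.0994) and Col1a1 1.45 (adjusted p = 0.274). Vwf also lost its call without KP replicate 1 or KP replicate 2, Col1a1 when any 1 library except KPS replicate 1 was left out, and Lama3 when any except KP replicate 2 or KPS-HET replicate 2 was. With the macrophage term none of the 3 was called (adjusted p = 0.168 for Vwf, 0.248 for Col1a1 and 0.141 for Lama3), and with limma-voom Vwf (0.0734) and Col1a1 (0.172) were not. Of 13 related proteins outside the 4 families Adamtsl4, an Adamts-like protein without a protease domain that binds fibrillin, rose by 2.45 ± 0.21 (SE, adjusted p = 0.00102), from 21.7 to 35.2 CPM in KP to 110 to 177 CPM in KPS, and was called against KPS-HET as well (2.07 ± 0.27, adjusted p = 0.0141). The procollagen protease Bmp1 fell by 0.62 ± 0.16 (adjusted p = 0.0474), a call lost with the macrophage term (adjusted p = 0.124) and when any 1 library except KP replicate 3 or KPS-HET replicate 1 was left out. Adamtsl4 kept its call against KP under every alternative tried and lost that against KPS-HET without either KPS-HET library.

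Of 17 transcription factors known to act on Mmp promoters 3 were called. Etv4, an ETS factor, fell by 1.04 ± 0.20 (SE, adjusted p = 0.0152), from 47.7 ± 8.51 CPM in KP (SD, n = 4) to 23.1 ± 4.93 in KPS (SD, n = 3). Runx2 rose by 1.70 ± 0.42 (adjusted p = 0.0396), from 6.27 ± 2.84 CPM to 20.4 ± 10.9, and Stat3 by 0.54 ± 0.13 (adjusted p = 0.0326), from 188 ± 25.5 to 274 ± 24. Etv4 was not called without KPS replicate 3 or with the macrophage term. Runx2 lost its call when any 1 library except KP replicate 3 or KPS replicate 1 was left out, and Stat3 when any except KP replicate 2 was. Both also lost it with the macrophage term (adjusted p = 0.0746 and 0.094) and with only the groups compared (0.0545 and 0.0527), and Runx2 with limma-voom (0.0737). None of the Fos and Jun family genes, whose products make up AP-1, was called.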

How the data were processed

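The authors deposited 1 table of estimated counts per gene, which hold fractions and are not scaled for library size. Per the submitters' processing notes, RSEM 1.3.1 and Bowtie 1.2.3 were used with mm9 as the genome. The sources used here do not state the annotation, the strand setting or any filter. RSEM divides reads between near-identical genes by estimation. Groups come from the genotype label, of which 1 allele that all groups share is not reported here. Replicates were numbered in sample order, so the numbers pair nothing. The members and the gene lists were chosen with earlier results of these data known.

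The values were first rounded to integers, by at most 0.5. Of 23224 genes, 15663 passed edgeR's filterByExpr with a minimum count of 10 and a minimum total of 15. Each contrast was tested with the quasi-likelihood F test (edgeR 4.0.16, R 4.3.3, TMM, robust) in 1 fit of the 9 libraries with a coefficient for each group, which leaves 6 residual degrees of freedom. P-values are two-sided and were adjusted by the Benjamini-Hochberg method over all genes tested, and a gene is called below 0.05. Adjusted p-values are edgeR's except where a tool is named. The estimated biological coefficient of variation common to all genes was 0.430. The SE is the log2 fold change divided by the square root of F. A group at 0 counts was set to a floor of 3 counts for the whole group. Reads carry no molecular identifiers, so floors cover counting error only. Library pairs within a group differed by far more than sampling noise (chi-square per degree of freedom of at least 43.97). The code was tested on simulated counts.

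Alternatives were DESeq2 1.42.0, limma-voom (limma 3.58.1), other scalings and filters, fits of only the groups compared, robust estimation off, a term for the macrophage marker level (mean log2 CPM per library), each library left out and, chosen after seeing the data, the 2 libraries of highest macrophage marker level left out together. Named genes were Smarca4, called members, every Timp, Mmp12, Mmp3, in each family those with the smallest p and the highest level, and called genes of each partner list. Other members are given for their role or level and were chosen after their values were seen. Exon lengths and overlaps came from GENCODE M21 and promoters from RefSeq GRCm38.p6, another build than the counts, matched by symbol for 78 and 48 members.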

Additional observations from a re-analysis of the deposited data

Results flagged for a closer look

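Among the 44 named genes, each tested in the 4 KP libraries, 3 had 1 library far from the other 3 by Dixon's criterion, and chance flags about 1 in 20. Adamts20, a proteoglycan-cutting enzyme of development, stood at 0.482 CPM in KP replicate 2 and at 0 in the other 3. Timp4 stood at 0.315 CPM in KP replicate 1 and at 0 in the other 3. With 3 libraries at 0 the criterion is met whatever the remaining value, so the rate of 1 in 20 does not apply to Adamts20 and Timp4. Their flags rest on 8 and 5 counts. Lama3 stood at 91.1 CPM in KP replicate 2, where the next highest KP library had 47.3 CPM.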

How the results depend on the processing

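Members called between KPS and KP numbered 9 in the main analysis, 15 with DESeq2, 2 with the macrophage term (Adam28 and Adamts15), 5 with the 2 libraries of highest macrophage marker level left out, and 2 to 6 with 1 library left out, with 2 without KP replicate 1 or KPS replicate 3. The same 9 members were called with either other scaling or a stricter filter, and these 9 and Mmp13 with robust estimation off. Of these 9, Mmp3, Adam12 and Adam28 kept their calls with the 2 libraries of highest macrophage marker level left out. Mmp12, Mmp23, Adam10, Adam15, Timp1 and Timp2 lost them. Over all genes the counts were 1134, 2280, 334, 726 and 505 to 956. Between KPS and KPS-HET 146 genes were called, 991 with DESeq2, 15 with only the groups compared, 14 with the same 2 libraries out and 1 to 150 with 1 library left out. Members called there numbered 0, 5 with DESeq2, 1 with those 2 libraries out (Mmp10) and 0 to 1 with 1 library left out (Mmp23 without KP replicate 3, Adam12 without KPS replicate 3). Between KPS-HET and KP DESeq2 called 2 genes. With 1 library left out Adamts1, not called, ranged from -0.56 to 0.39 and turned to -0.05 without KP replicate 4 and -0.56 without KPS replicate 2, Timp3 to -0.35 with the macrophage term, and Adamts8 between KPS-HET and KP to -4.56 without KPS-HET replicate 1 (up to 3.34 without KPS-HET replicate 2) and -4.41 with the 2 libraries out. The cause was not tested. Of the named genes' values under the alternatives 977 kept their direction and side of the threshold, 184 lost a call, 23 gained one and 5 turned. No paired analysis was possible because the replicate numbers follow sample order. Members below about 1 CPM rest on few counts.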
